A study of Homo sapiens with 24 samples.

Results

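The nuclear genes of the 5 enzyme complexes of oxidative phosphorylation were followed in SKBR3 cells given 1 of 2 HER2 antibodies. The genes were taken from the deposited table by symbol: symbols that start with NDUFA, NDUFB, NDUFC, NDUFS or NDUFV and a digit, with COX4, COX5, COX6, COX7 or COX8, with UQCR or with ATP5, and SDHA, SDHB, SDHC, SDHD and CYC1, with pseudogenes left out. Of 60617 rows, 93 met this rule. They were 87 subunit genes, ATP5IF1, which encodes an inhibitor of complex V, 3 non-coding RNAs and 2 readthrough transcripts. A filter on low counts left 83, of which 80 were subunit or inhibitor genes. The 10 others had too few counts to test.

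SKBR3 is an established human breast carcinoma line in which ERBB2, the gene of the growth factor receptor HER2, is amplified. There were 3 groups of 8 polyA RNA libraries: cells given Herceptin (trastuzumab, an antibody against HER2), cells given the biosimilar ApoTras, and untreated cells (control). All 3 groups were plated at a density of 6500 cells per cm2, grown in the same serum-containing medium, and harvested for RNA on day 7. A dose of 4 μg/ml stands beside Herceptin in the labels, which leave unclear whether the biosimilar was given at it too. The antibodies came in phosphate-buffered saline, and no group given saline or an unrelated antibody is described. The libraries come from 1 cell line, and the labels give neither plates nor batches, so the p-values below speak for the spread among these libraries alone, and that spread may be technical. The stated purpose was to compare the 2 antibodies by the RNA of treated cells.

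Oxidative phosphorylation takes place in the inner mitochondrial membrane. Complexes I and II pass electrons from NADH and succinate to ubiquinone, complex III passes them on to cytochrome c, complex IV passes them to oxygen, and complex V, the ATP synthase, makes ATP from the proton gradient that complexes I, III and IV build. Complex II is made of nuclear-encoded subunits alone, while the other complexes also hold a few subunits encoded in mitochondrial DNA. The nuclear genes are scattered over the chromosomes, and the transcription factors NRF1, YY1 and GABPA, a member of the ETS family, are known to bind the promoters of many of them.

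Promoters of 4 genes are shown: SDHA and SDHB, whose mRNAs moved farthest apart in complex II, and ATP5MPL and ATP5F1C, whose mRNAs fell the most in complex V. They run from 250 bases before to 50 after the RefSeq start (GRCh38.p14), written 5′ to 3′ on the strand of the gene. Capitals mark matches, on either strand, to GCGCNTGCG (NRF1), CCGGAAGT (ETS) or AAGATGGC (YY1).
SDHA, chr5:218070-218369, plus strand: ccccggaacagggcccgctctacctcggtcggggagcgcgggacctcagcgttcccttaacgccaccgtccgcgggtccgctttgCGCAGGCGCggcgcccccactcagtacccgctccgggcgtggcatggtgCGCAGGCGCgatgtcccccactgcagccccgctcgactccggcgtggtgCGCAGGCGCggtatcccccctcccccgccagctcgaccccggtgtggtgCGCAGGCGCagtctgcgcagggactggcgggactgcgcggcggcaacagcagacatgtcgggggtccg
SDHB, chr1:17053983-17054282, minus strand: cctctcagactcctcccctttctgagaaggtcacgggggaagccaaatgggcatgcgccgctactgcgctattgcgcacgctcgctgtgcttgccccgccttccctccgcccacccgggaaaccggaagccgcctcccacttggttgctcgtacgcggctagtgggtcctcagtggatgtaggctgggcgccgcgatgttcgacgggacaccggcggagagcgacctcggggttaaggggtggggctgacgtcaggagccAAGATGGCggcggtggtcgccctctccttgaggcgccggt
ATP5MPL, chr14:103921480-103921779, minus strand: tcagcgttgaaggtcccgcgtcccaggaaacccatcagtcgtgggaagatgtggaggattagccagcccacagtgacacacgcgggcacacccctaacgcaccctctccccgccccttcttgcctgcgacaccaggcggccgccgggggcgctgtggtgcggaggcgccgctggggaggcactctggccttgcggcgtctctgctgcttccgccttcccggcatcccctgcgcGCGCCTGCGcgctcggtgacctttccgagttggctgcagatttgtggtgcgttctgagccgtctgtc
ATP5F1C, chr10:7787927-7788226, plus strand: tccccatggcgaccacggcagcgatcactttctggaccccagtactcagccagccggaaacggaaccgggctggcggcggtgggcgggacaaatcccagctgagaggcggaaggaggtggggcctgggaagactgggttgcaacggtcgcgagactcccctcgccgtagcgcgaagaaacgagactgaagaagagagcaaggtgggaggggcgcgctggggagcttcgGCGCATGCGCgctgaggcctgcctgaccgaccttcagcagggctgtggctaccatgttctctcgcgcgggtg
SDHA, the one higher in antibody-treated cells, held 4 matches to the NRF1 letters, and SDHB held 1 match to the YY1 letters. ATP5MPL held 1 NRF1 match, and ATP5F1C held 2 that overlap on opposite strands. The table held a promoter for 66 of the 80 genes. The NRF1 letters stood in 22 of these 66 (33.3%), against 8.05% of the 27305 promoters of the table. The YY1 letters stood in 16.7% of them, against 3.03% of all, and the ETS letters in 15.2%, against 4.44% of all. By complex, these shares rest on as few as 3 promoters, and differences between the complexes were not tested. The NRF1 letters stood in 9 of 31 promoters of complex I (29%), 2 of 3 of complex II, 4 of 7 of complex III and 6 of 14 of complex V (42.9%), but in 1 of 11 of complex IV (9.09%). The YY1 letters stood in none of the 11 complex IV promoters, and the ETS letters in 2 of the 31 of complex I (6.45%). A match is a description of the sequence and says nothing of binding in these cells.

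Most of the nuclear genes of complexes I, III, IV and V were lower in treated cells, with either antibody, by a modest amount. A gene is called lower or higher here where the edgeR quasi-likelihood test gave a Benjamini-Hochberg adjusted p under 0.05 over all 13536 tested genes. With Herceptin, 57 of the 80 genes were lower (71.2%) and 2 higher, where 23.8% of all tested genes were lower and 22.7% higher. With the biosimilar, 64 were lower (80%) and 4 higher, where 24.6% of all were lower and 23.3% higher. The median log2 fold change was -0.17 with Herceptin and -0.25 with the biosimilar, while the median over all tested genes lay at -0.000525 with Herceptin and -0.00256 with the biosimilar. In 25 of the 80 genes all 8 Herceptin libraries lay below all 8 control libraries, against 8.07% of all tested genes. In 28 of the 80 all 8 biosimilar libraries did, against 7.73% of all. No such share was taken over genes of like level. Both comparisons use the same control libraries and are not independent. In RNA from whole cultures, fewer cells of a type and less RNA per cell cannot be told apart.

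**Figure D1:**
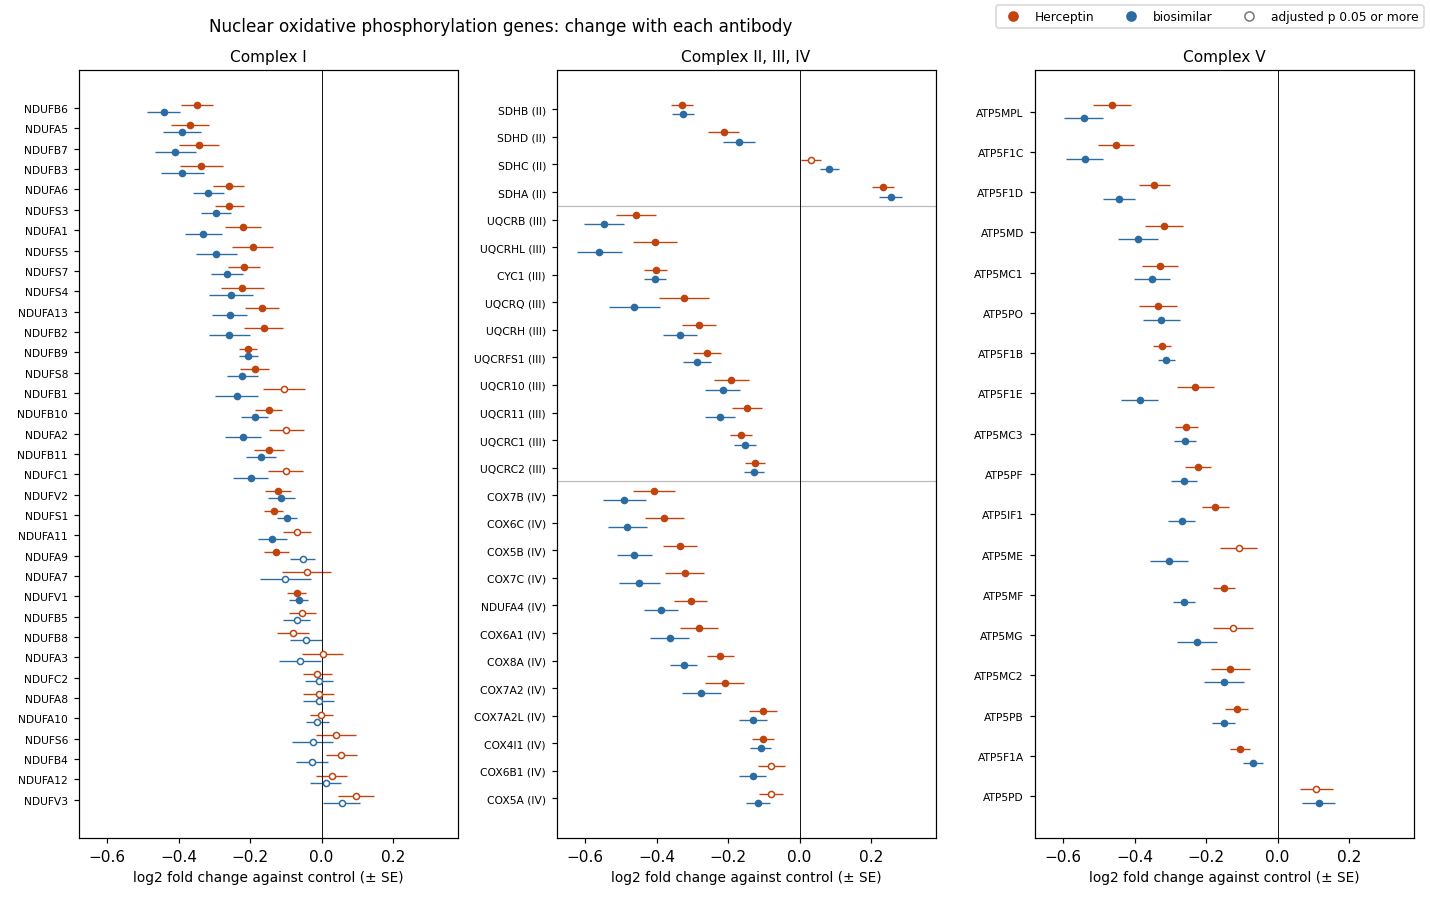
Log2 fold change against control (x axis, ± SE) of 79 of the 80 tested subunit and inhibitor genes, by complex, with Herceptin (red) and the biosimilar (blue). Open points have an adjusted p of 0.05 or more. All complex III points lie left of 0, SDHA lies right of 0 at 0.23 with Herceptin and 0.25 with the biosimilar, and ATP5MPL and UQCRB reach -0.54 and -0.55 with the biosimilar.

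These genes have short transcripts, and most have high levels. Their median deposited length was 776.5 bases, against 2316 bases over all tested genes. Among 1084 other nuclear genes with a length of 487 to 1875 bases and a mean level of 45.9 to 302 CPM (expected counts scaled by the library total and its TMM factor), the 10th to 90th percentiles of the 80 genes, 48.8% were lower with Herceptin and 15.8% higher. With the biosimilar, 53.8% of them were lower and 15.5% higher. Their median log2 fold change was -0.08 with Herceptin and -0.10 with the biosimilar. The part of length and level in the result was not tested further.

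As a share of all counts in a library, the 93 rows together held 1.284% ± 0.0229 with Herceptin, 1.257% ± 0.0564 with the biosimilar and 1.489% ± 0.045 in control (SD, n = 8 each). No Herceptin or biosimilar library reached the control range, whose lowest value was 1.429%, while the highest were 1.314% with Herceptin and 1.362% with the biosimilar. By complex, complex I held 0.4093% with Herceptin, 0.4032% with the biosimilar and 0.4588% in control. Complex V held 0.4216% with Herceptin, 0.4125% with the biosimilar and 0.5027% in control. Complex IV held 0.2269% with Herceptin, 0.2155% with the biosimilar and 0.273% in control, and complex III 0.1467% with Herceptin, 0.1439% with the biosimilar and 0.1749% in control. In these 4 complexes no treated library reached the control range. Complex II held 0.0798% ± 0.00194 with Herceptin, 0.08172% ± 0.00148 with the biosimilar and 0.07965% ± 0.00188 in control, in ranges that overlap. Biosimilar replicate 6 had the highest share of its group in all 5 complexes.

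**Figure D2:**
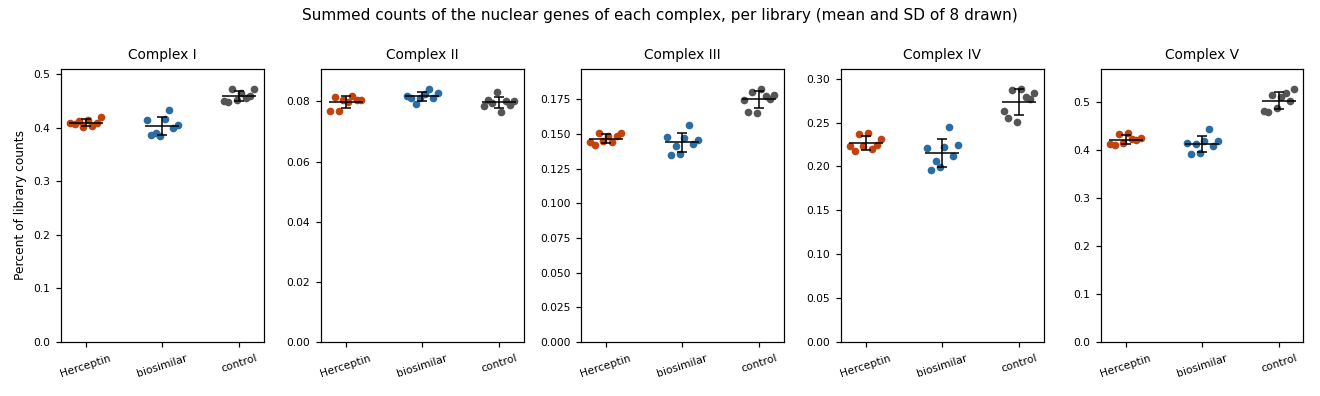
Percent of each library's counts held by the nuclear genes of complexes I to V (y axes, each from 0), for 8 Herceptin, 8 biosimilar and 8 control libraries, with mean and SD. Complex II overlaps between the groups, and the other 4 complexes are lower in treated libraries.

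In complex I, the NADH dehydrogenase, 20 of 36 tested genes were lower and 1 higher with Herceptin, with a median log2 fold change of -0.12. With the biosimilar, 23 were lower and 1 higher, with a median of -0.18. The core genes are a list of 7, and the products of most of them carry the flavin or iron-sulfur clusters or line the ubiquinone site. Of the 29 accessory genes, 14 were lower with Herceptin (48.3%) and 17 with the biosimilar (58.6%). Of the 1084 other nuclear genes of like length and level, 48.8% were lower with Herceptin and 53.8% with the biosimilar. Of all tested genes, 23.8% were lower with Herceptin and 24.6% with the biosimilar. No change was called in 15 of the 36 complex I genes with Herceptin and in 12 with the biosimilar. The other complexes had fewer such genes, but also fewer genes tested. Over all 13536 tested genes, no change was called in 7254 with Herceptin and in 7044 with the biosimilar.

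NDUFS3 (chr11:47565336-47584562), a core subunit at the ubiquinone end of the peripheral arm, had the largest fall of the core genes described. It measured 67.71, 72.78 and 77.77 CPM (lowest, median and highest of 8 libraries, as in all such sets of 3 values below) with Herceptin, 64.82, 70.59 and 81.25 CPM with the biosimilar and 80.95, 86.54 and 92.85 CPM in control. All Herceptin libraries, and all biosimilar libraries but the highest, lay below the control range. It fell with both antibodies, with a log2 fold change of -0.26 with Herceptin (SE 0.0405, edgeR adjusted p = 1.33e-06) and -0.30 for the biosimilar (SE 0.0411, adjusted p = 1.16e-07). NDUFS3 had fractional counts in 100% of libraries and shares 22.4% of its exon bases with other tested genes, so that its value is uncertain. NDUFS7 and NDUFS8, which carry iron-sulfur clusters next to the ubiquinone site, fell by 0.22 and 0.19 with Herceptin and by 0.27 and 0.22 with the biosimilar on the log2 scale. NDUFS1, the largest core subunit, fell by 0.13 with Herceptin and by 0.10 with the biosimilar. In the NADH-oxidizing tip, NDUFV2 fell by 0.12 with Herceptin and by 0.11 with the biosimilar, and NDUFV1, which binds NADH and the flavin, by 0.07 with Herceptin and by 0.06 with the biosimilar. NDUFV1 was close to the threshold, with edgeR adjusted p-values of 0.0321 for Herceptin and 0.0494 for the biosimilar, and its biosimilar call was lost under 26 of 34 other settings.

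Among the accessory subunits, NDUFB6 (chr9:32552999-32573184), in the membrane arm, fell the most on average over both antibodies. It measured 46.17, 49.49 and 53.74 CPM with Herceptin, 42.44, 45.42 and 51.6 CPM with the biosimilar and 58.08, 61.62 and 71.45 CPM in control. No treated library reached the control range. The log2 fold change of NDUFB6 was -0.35 with Herceptin (SE 0.0451, edgeR adjusted p = 2.6e-08) and -0.44 for the biosimilar (SE 0.046, adjusted p = 1.83e-10). NDUFB7, at the far end of the membrane arm, measured 63.06, 69.36 and 75.81 CPM with Herceptin, 58.64, 65.67 and 72.79 CPM with the biosimilar and 77.48, 83.64 and 106.3 CPM in control, again with no overlap. Its log2 fold change was -0.34 with Herceptin and -0.41 with the biosimilar. NDUFA5, in the peripheral arm, measured 281.5, 307.4 and 328.9 CPM with Herceptin, 273.7, 309.3 and 322.3 CPM with the biosimilar and 344.5, 401.7 and 474.8 CPM in control, and its groups did not overlap either. NDUFA5 fell by 0.37 with Herceptin and by 0.39 with the biosimilar on the log2 scale, with fractional counts in 50% of libraries.

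Several accessory genes showed no call with either antibody. NDUFA10 averaged 90.15 ± 3.46 CPM with Herceptin, 89.48 ± 3.17 CPM with the biosimilar and 90.18 ± 3.64 CPM in control, and NDUFA8 averaged 46.13 ± 1.44 CPM with Herceptin, 46.09 ± 3.71 CPM with the biosimilar and 46.38 ± 2.56 CPM in control. For these genes the means differed by less than the SD between libraries. NDUFV3, a small subunit of the NADH-oxidizing tip, had the most positive fold change of the accessory genes, 0.10 with Herceptin and 0.06 with the biosimilar, with edgeR adjusted p-values of 0.123 for Herceptin and 0.393 for the biosimilar. NDUFA9, a subunit beside the ubiquinone site, was called lower with Herceptin alone, at -0.13 with an edgeR adjusted p of 0.00227, against -0.05 and an adjusted p of 0.211 with the biosimilar. NDUFA2, NDUFA11, NDUFB1 and NDUFC1 were called lower with the biosimilar alone, at -0.22, -0.14, -0.24 and -0.20, against values of -0.10, -0.07, -0.10 and -0.10 with Herceptin. For none of these 5 genes was the difference between the antibodies called.

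Counted per kilobase of deposited effective length, NDUFB9 had the highest level of complex I, with 2030 CPM per kilobase with Herceptin, 2030 with the biosimilar and 2340 in control. Per kilobase of annotated exon, NDUFS5 came first in control with 295 CPM per kilobase, ahead of NDUFB9 with 268, so that the order rests on the length used. NDUFB9 was lower with both antibodies, with log2 fold changes of -0.21 for Herceptin (edgeR adjusted p = 1.09e-08) and -0.21 for the biosimilar (adjusted p = 1.29e-08) and no overlap with control. It had fractional counts in 91.7% of libraries and shares 21% of its exon bases with genes on the opposite strand. NDUFV3, with 16.2 CPM per kilobase of effective length in control, was the lowest of the complex I genes tested.

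Complex II, succinate dehydrogenase, was split. SDHA (chr5:218241-256700), the flavoprotein that oxidizes succinate, measured 284.7, 302.4 and 324.9 CPM with Herceptin, 282.4, 307.0 and 322.9 CPM with the biosimilar and 245.8, 253.7 and 284.0 CPM in control. All Herceptin libraries lay above all control libraries, and the lowest biosimilar library lay just under the highest control library. The log2 fold change was 0.23 with Herceptin (SE 0.0316, edgeR adjusted p = 7.35e-08) and 0.25 for the biosimilar (SE 0.0317, adjusted p = 1.19e-08). SDHB (chr1:17018722-17054170), the iron-sulfur subunit bound to SDHA, measured 91.18, 96.3 and 102.2 CPM with Herceptin, 89.95, 96.94 and 103.0 CPM with the biosimilar and 117.5, 121.0 and 128.0 CPM in control. No treated library came near the control range. SDHB thus had a log2 fold change of -0.33 with Herceptin (SE 0.0303, edgeR adjusted p = 8.25e-12) and -0.33 for the biosimilar (SE 0.0306, adjusted p = 1.18e-11).

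The ratio of SDHA to SDHB counts within a library needs no scaling factor. It was 3.14 ± 0.164 with Herceptin, 3.20 ± 0.25 with the biosimilar and 2.13 ± 0.123 in control (SD, n = 8 each). The lowest ratio was 2.98 with Herceptin and 2.87 with the biosimilar, above the highest of 2.31 in control. SDHA had fractional counts in 100% of libraries. The row of its pseudogene SDHAP1 averaged 19.42 ± 1.47 CPM with Herceptin, 18.78 ± 2.68 CPM with the biosimilar and 17.98 ± 1.48 CPM in control, with log2 fold changes of 0.11 for Herceptin (edgeR adjusted p = 0.171) and 0.06 for the biosimilar (adjusted p = 0.476). How the division of reads bears on SDHA was not tested. SDHB counts were whole in all libraries.

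The membrane anchors of complex II also differed from each other. SDHD fell, with 114.6, 126.6 and 134.8 CPM with Herceptin, 113.8, 130.9 and 142.3 CPM with the biosimilar and 131.9, 148.4 and 160.6 CPM in control. The groups overlapped at their edges, and every treated library lay below the control median. Its log2 fold change was -0.21 with Herceptin (edgeR adjusted p = 0.000146) and -0.17 with the biosimilar (adjusted p = 0.00182). SDHC measured 256.3, 277.9 and 285.1 CPM with Herceptin, 277.7, 279.2 and 293.0 CPM with the biosimilar and 258.9, 267.2 and 281.9 CPM in control. The 3 ranges overlapped. SDHC was higher with the biosimilar, by 0.08 on the log2 scale (SE 0.0268, edgeR adjusted p = 0.0101), and not called with Herceptin at 0.03 (SE 0.0268, adjusted p = 0.354), and the difference between the antibodies was not called. Per kilobase of effective length, SDHC had the highest level of the 4 genes in control at 308 CPM per kilobase, and SDHA the lowest at 127, but per kilobase of annotated exon SDHC was the lowest at 18.9.

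**Figure D3:**
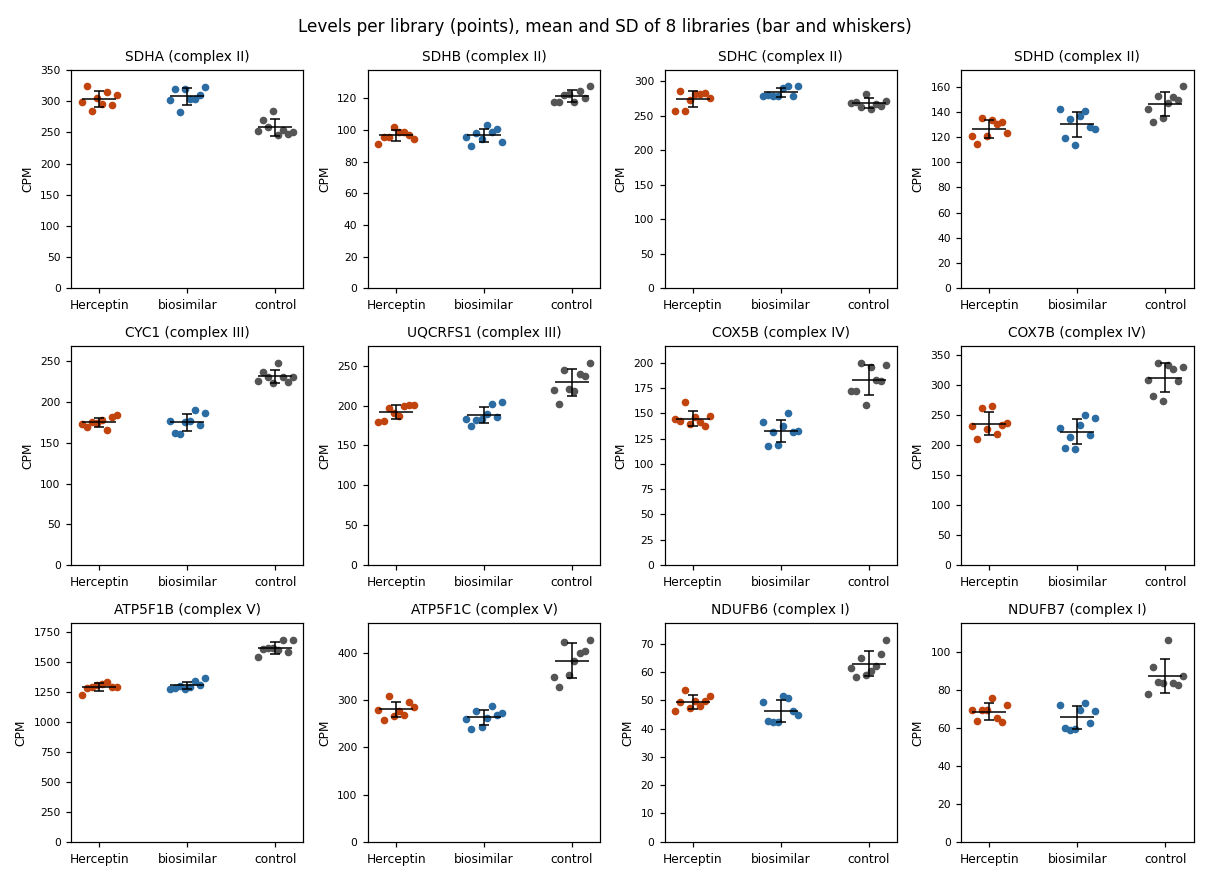
Level in CPM (y axes, each from 0) of 12 genes in every library, as points with mean and SD of 8 libraries, for Herceptin, biosimilar and control. SDHA is higher and SDHB lower in treated libraries, and CYC1, COX7B, ATP5F1B, ATP5F1C, NDUFB6 and NDUFB7 show no overlap between treated and control libraries.

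All 10 genes of complex III, the cytochrome bc1 complex, were lower with each antibody. Among the 10 are UQCRH and UQCRHL, whose reads cannot be told apart well. The median log2 fold changes of the complex were -0.27 with Herceptin and -0.31 with the biosimilar. Of all tested genes, 23.8% were lower with Herceptin and 24.6% with the biosimilar. For the 1084 nuclear genes of like length and level, these shares were 48.8% with Herceptin and 53.8% with the biosimilar. CYC1 (chr8:144095027-144097525) encodes cytochrome c1, the heme protein that hands electrons to cytochrome c. It measured 165.7, 174.7 and 183.5 CPM with Herceptin, 160.6, 175.8 and 189.7 CPM with the biosimilar and 223.6, 230.2 and 248.3 CPM in control. The gap between treated and control libraries was wider than the spread within any group. The log2 fold change was -0.40 with Herceptin (SE 0.0314, edgeR adjusted p = 8.51e-14) and -0.40 for the biosimilar (SE 0.0316, adjusted p = 9.35e-14).

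The Rieske iron-sulfur protein gene UQCRFS1, which passes electrons to cytochrome c1, measured 179.2, 193.8 and 200.9 CPM with Herceptin, 174.9, 184.4 and 204.7 CPM with the biosimilar and 202.5, 228.9 and 253.8 CPM in control. Treated and control libraries overlapped only in 1 biosimilar library against 1 control library. It fell by 0.26 with Herceptin (edgeR adjusted p = 6.57e-07) and by 0.29 with the biosimilar (adjusted p = 1.02e-07) on the log2 scale, with fractional counts in 100% of libraries. UQCRB, whose product lies near the ubiquinone site, had one of the largest falls, with 45.78, 51.93 and 62.99 CPM with Herceptin, 43.05, 50.97 and 53.75 CPM with the biosimilar and 62.92, 73.6 and 80.06 CPM in control. Its Herceptin range just touched the control range. The log2 fold change was -0.46 with Herceptin (SE 0.0556, edgeR adjusted p = 4.35e-08) and -0.55 for the biosimilar (SE 0.0567, adjusted p = 1.84e-09). UQCRC1 and UQCRC2, the large core proteins of the matrix side, fell by less, by 0.16 and 0.12 with Herceptin and by 0.15 and 0.13 with the biosimilar.

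UQCRHL is a near copy of UQCRH, the hinge protein beside cytochrome c1, with 98.5% identity between their coding sequences, and both had counts that were not whole in 95.8% of libraries. UQCRH measured 282.4, 301.2 and 319.2 CPM with Herceptin, 260.4, 290.4 and 319.2 CPM with the biosimilar and 308.4, 370.5 and 400.8 CPM in control. UQCRHL averaged 20.69 ± 1.2 CPM with Herceptin, 18.53 ± 2.61 CPM with the biosimilar and 27.43 ± 2.26 CPM in control. Reads of the pair cannot be told apart well, so that their separate falls of 0.28 and 0.41 with Herceptin, and of 0.34 and 0.56 with the biosimilar, are uncertain.

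In complex IV, cytochrome c oxidase, 10 of 12 tested genes were lower with Herceptin and 12 of 12 with the biosimilar. Their median log2 fold change was -0.25 for Herceptin and -0.34 for the biosimilar. Of all tested genes, 23.8% were lower with Herceptin and 24.6% with the biosimilar. For the 1084 nuclear genes of like length and level, these shares were 48.8% with Herceptin and 53.8% with the biosimilar. NDUFA4, once assigned to complex I and found in complex IV, is counted in complex IV. COX7B and COX6C, small subunits that span the membrane, had the most negative fold changes. COX7B (chrX:77899438-77907373) measured 210.7, 233.0 and 265.0 CPM with Herceptin, 193.8, 223.2 and 250.4 CPM with the biosimilar and 273.3, 318.0 and 337.6 CPM in control. All treated libraries lay below all control libraries. COX7B had a log2 fold change of -0.41 with Herceptin (SE 0.0593, edgeR adjusted p = 4.4e-06) and -0.49 for the biosimilar (SE 0.0598, adjusted p = 2.97e-07). COX6C measured 160.8, 170.6 and 191.1 CPM with Herceptin, 142.9, 158.3 and 177.6 CPM with the biosimilar and 185.4, 232.3 and 247.9 CPM in control. Its biosimilar libraries were all below control, and its Herceptin libraries overlapped with control at 1 edge. COX6C fell by 0.38 with Herceptin (edgeR adjusted p = 2.29e-06) and by 0.48 with the biosimilar (adjusted p = 5.57e-08) on the log2 scale, with fractional counts in 62.5% of libraries.

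The other genes around the catalytic core differed in the size of their fold changes, from -0.33 for COX5B to -0.08 for COX5A and COX6B1 with Herceptin, and from -0.46 for COX5B to -0.11 for COX4I1 with the biosimilar. COX5B, which binds zinc, measured 137.3, 143.3 and 161.5 CPM with Herceptin, 117.7, 132.2 and 150.6 CPM with the biosimilar and 158.8, 182.7 and 200.3 CPM in control. Only Herceptin replicate 3 reached into the control range. COX5B fell by 0.33 with Herceptin (SE 0.048, edgeR adjusted p = 1.23e-06) and by 0.46 with the biosimilar (SE 0.0486, adjusted p = 4.62e-09) on the log2 scale. COX5A, its partner on the matrix side, averaged 129.0 ± 4.91 CPM with Herceptin, 125.7 ± 7.54 CPM with the biosimilar and 136.3 ± 6.06 CPM in control. It was lower with the biosimilar at -0.12 (edgeR adjusted p = 0.00461) and just missed the threshold with Herceptin at -0.08 (adjusted p = 0.0505), where 14 of 34 other settings called it. COX4I1, which is known to bind ATP as a regulator of the enzyme, averaged 215.1 ± 5.67 CPM with Herceptin, 214.0 ± 10.8 CPM with the biosimilar and 230.9 ± 9.35 CPM in control, and fell by 0.10 with Herceptin and by 0.11 with the biosimilar. NDUFA4 fell by 0.30 with Herceptin and by 0.39 with the biosimilar, with no overlap between treated and control libraries. COX6B1, which faces cytochrome c, was lower with the biosimilar at -0.13 (edgeR adjusted p = 0.00366) and not called with Herceptin at -0.08 (adjusted p = 0.0776).

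Where complex IV has tissue isoforms, SKBR3 cells had the forms known from most tissues and next to none of the others. COX6A1 averaged 120.9 ± 7.58 CPM with Herceptin, 114.2 ± 12.6 CPM with the biosimilar and 147.0 ± 8.77 CPM in control, while COX6A2, the heart and muscle form, had no count in any library, and a count of 0 allows up to 3 counts per library. COX7A2 averaged 157.8 ± 6.3 CPM with Herceptin, 150.7 ± 13.3 CPM with the biosimilar and 182.5 ± 17.7 CPM in control, against at most 1 count in any library for the muscle form COX7A1. COX8A averaged 132.0 ± 4.62 CPM with Herceptin, 122.8 ± 10.1 CPM with the biosimilar and 153.9 ± 7.09 CPM in control, against no count for COX8C, a form known from testis. COX4I2, known from lung, reached 1 count, COX6B2 and COX7B2, both known from testis, reached 5 and 11 counts, and NDUFA4L2, known to respond to low oxygen, reached 3. COX6A1, COX7A2 and COX8A were each lower with both antibodies, at -0.28, -0.21 and -0.22 with Herceptin and at -0.36, -0.28 and -0.32 with the biosimilar. COX7A2L, which joins complexes III and IV into supercomplexes, averaged 89.32 ± 3.51 CPM with Herceptin, 87.63 ± 6.88 CPM with the biosimilar and 95.92 ± 4.23 CPM in control, and fell by 0.10 with Herceptin and by 0.13 with the biosimilar.

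In complex V, 15 of 18 tested genes were lower and none higher with Herceptin, and 17 were lower and 1 higher with the biosimilar. The median log2 fold changes were -0.23 with Herceptin and -0.29 with the biosimilar. Of all tested genes, 23.8% were lower with Herceptin and 24.6% with the biosimilar. For the 1084 nuclear genes of like length and level, these shares were 48.8% with Herceptin and 53.8% with the biosimilar. All 5 genes of the F1 head, where ATP is made, were lower with each antibody. ATP5F1B (chr12:56638175-56646068), the catalytic beta subunit, had the most counts of all 93 rows. It measured 1225, 1296 and 1339 CPM with Herceptin, 1274, 1300 and 1366 CPM with the biosimilar and 1548, 1617 and 1691 CPM in control. Treated and control libraries were far apart. Its log2 fold change was -0.32 with Herceptin (SE 0.0242, edgeR adjusted p = 2.35e-14) and -0.31 for the biosimilar (SE 0.0242, adjusted p = 7.76e-14). ATP5F1A, the alpha subunit that pairs with it, averaged 339.7 ± 10.4 CPM with Herceptin, 348.1 ± 10.6 CPM with the biosimilar and 365.1 ± 15.8 CPM in control. ATP5F1A fell by 0.10 with Herceptin (edgeR adjusted p = 0.00189) and by 0.07 with the biosimilar (adjusted p = 0.0387) on the log2 scale, and the biosimilar call was lost under 12 of 34 other settings.

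ATP5F1C (chr10:7788129-7807815), the gamma subunit that turns inside the head, measured 258.1, 278.5 and 307.7 CPM with Herceptin, 239.2, 265.3 and 286.8 CPM with the biosimilar and 327.9, 391.0 and 428.2 CPM in control. No treated library reached the control range. Its log2 fold change was -0.45 with Herceptin (SE 0.0504, edgeR adjusted p = 3.54e-08) and -0.54 for the biosimilar (SE 0.0507, adjusted p = 1.67e-09). ATP5F1D, the delta subunit of the central stalk, averaged 44.85 ± 1.88 CPM with Herceptin, 41.8 ± 3.08 CPM with the biosimilar and 56.96 ± 4.01 CPM in control, and fell by 0.34 with Herceptin and by 0.44 with the biosimilar. ATP5MPL (chr14:103912288-103928269), a small membrane protein of the synthase, measured 81.23, 88.89 and 98.53 CPM with Herceptin, 74.97, 84.5 and 97.37 CPM with the biosimilar and 109.7, 123.0 and 138.2 CPM in control. These groups did not overlap either. ATP5MPL had the largest fall of the complex with Herceptin, -0.46 (SE 0.0539, edgeR adjusted p = 4.57e-08), and fell by 0.54 with the biosimilar (SE 0.0547, adjusted p = 3.33e-09).

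Of the 4 genes of the peripheral stalk, which holds the head in place, 3 were lower with each antibody. Among all tested genes, 23.8% were lower with Herceptin and 24.6% with the biosimilar. ATP5PO, which joins the stalk to the head, ATP5PF and ATP5PB fell by 0.33, 0.22 and 0.11 with Herceptin and by 0.33, 0.26 and 0.15 with the biosimilar on the log2 scale. ATP5PD, the d subunit, was the exception, with 139.2, 151.1 and 171.6 CPM with Herceptin, 138.9, 154.1 and 165.3 CPM with the biosimilar and 126.5, 141.3 and 161.2 CPM in control. The ranges overlapped, and 7 of 8 libraries of each antibody lay above the control median. Its log2 fold change was 0.11 with Herceptin (SE 0.0462, edgeR adjusted p = 0.0553) and 0.11 for the biosimilar (SE 0.0465, adjusted p = 0.0424), and 12 of 34 other settings lost the biosimilar call. ATP5IF1, the inhibitor of the synthase, fell by 0.17 with Herceptin and by 0.27 with the biosimilar on the log2 scale.

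The ring that turns with the proton flow is made of copies of 1 mature protein, subunit c, which 3 genes encode with different import signals. The 77 residues shared at the end of ATP5MC1, ATP5MC2 and ATP5MC3 are encoded by 231 bases, of which 57 differ between at least 2 of the genes (GENCODE v29 on GRCh38). The first 90 of these bases are shown because they let the 3 mRNAs of 1 protein be counted apart. Capitals mark the 23 positions that differ, and the others are shared by all 3.
ATP5MC1: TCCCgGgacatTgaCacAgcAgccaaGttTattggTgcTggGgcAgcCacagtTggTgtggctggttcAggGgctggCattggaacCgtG
ATP5MC2: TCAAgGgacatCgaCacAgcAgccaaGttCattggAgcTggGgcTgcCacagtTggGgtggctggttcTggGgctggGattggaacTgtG
ATP5MC3: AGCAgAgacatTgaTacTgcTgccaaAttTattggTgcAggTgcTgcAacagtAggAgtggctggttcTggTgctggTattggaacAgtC
The expected counts of all 3 genes were whole in every library. ATP5MC3 averaged 240.0 ± 6.46 CPM with Herceptin, 239.3 ± 14.8 CPM with the biosimilar and 286.5 ± 10.2 CPM in control. ATP5MC1 averaged 37.28 ± 2.51 CPM with Herceptin, 36.66 ± 3.57 CPM with the biosimilar and 46.8 ± 2.86 CPM in control. ATP5MC2 averaged 81.63 ± 5.25 CPM with Herceptin, 80.53 ± 7.97 CPM with the biosimilar and 89.5 ± 7.55 CPM in control. On the log2 scale, ATP5MC1 fell by 0.33 with Herceptin and by 0.35 with the biosimilar, and ATP5MC3 by 0.26 with each. ATP5MC2 fell by 0.13 with Herceptin (edgeR adjusted p = 0.0482) and by 0.15 with the biosimilar (adjusted p = 0.0257). The Herceptin call of ATP5MC2 was lost under 17 of 34 other settings. Per effective length, ATP5MC3 made up 54.4% of the 3 mRNAs with Herceptin, 54.7% with the biosimilar and 54.6% in control. ATP5MC2 made up 20.4% ± 0.891 with Herceptin, 20.3% ± 0.942 with the biosimilar and 18.8% ± 0.842 in control, in ranges that overlap, and ATP5MC1 the rest. Per annotated exon length ATP5MC2 stood above ATP5MC1 in control, with 22.4 against 17.9 CPM per kilobase, and per effective length below it, with 139 against 195.

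The antibodies were also compared with each other. None of the 80 genes was called between the biosimilar and Herceptin by edgeR, as with 0% of all 13536 tested genes, and 13 of the 80 (16.2%) had an unadjusted p under 0.05, against 78 of the 1084 nuclear genes of like length and level (7.2%) and 722 of all tested genes (5.33%). DESeq2 called none of the 80. A test against a bound of 1.2-fold, adjusted over all tested genes, placed 77 of the 80 within it. It placed 1076 of the 1084 nuclear genes of like length and level within it, and 74.5% of all tested genes. The 95% intervals of the log2 difference, biosimilar minus Herceptin, ran from -0.30 at the lowest to 0.14 at the highest over the 80 genes. The 3 genes not placed within the bound were UQCRHL, UQCRQ and ATP5ME. The smallest p-values were those of ATP5ME, ATP5MF and ATP5F1E, genes singled out after their values were seen. ATP5ME, a subunit of the membrane part of the synthase, measured 37.04, 40.08 and 47.08 CPM with the biosimilar and 42.01, 46.43 and 51.2 CPM with Herceptin, a log2 difference of -0.20 (95% interval -0.30 to -0.09, edgeR adjusted p = 0.508). The ranges overlapped, and ATP5ME shares 61.6% of its exon bases with MYL5 on the opposite strand. ATP5F1E, the epsilon subunit, measured 213.3, 248.0 and 276.9 CPM with the biosimilar and 256.3, 269.6 and 295.4 CPM with Herceptin, a difference of -0.16 (95% interval -0.26 to -0.05, adjusted p = 0.791). ATP5MF, another membrane subunit, averaged 198.1 ± 8.91 CPM with the biosimilar and 214.1 ± 6.01 CPM with Herceptin, a difference of -0.11 (95% interval -0.17 to -0.05, adjusted p = 0.537).

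Small as they were, 63 of the 80 differences (78.8%) lay below 0, with a median of -0.04. Of the 1084 nuclear genes of like length and level, 745 lay below 0 (68.7%), with a median of -0.02, and of all 13536 tested genes 6878 did (50.8%), with a median of -0.00146. These differences ran with transcript length. Spearman's rho between the difference and the deposited length was 0.466 across the 80 genes and 0.249 across 13437 other nuclear genes, where genes are not independent replicates and share the same libraries. The 40 shorter genes had a median difference of -0.07 and the 40 longer ones of -0.02. The part of length in the difference was not tested. For the change against control, rho with length was 0.0357 with Herceptin and 0.194 with the biosimilar.

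**Figure D4:**
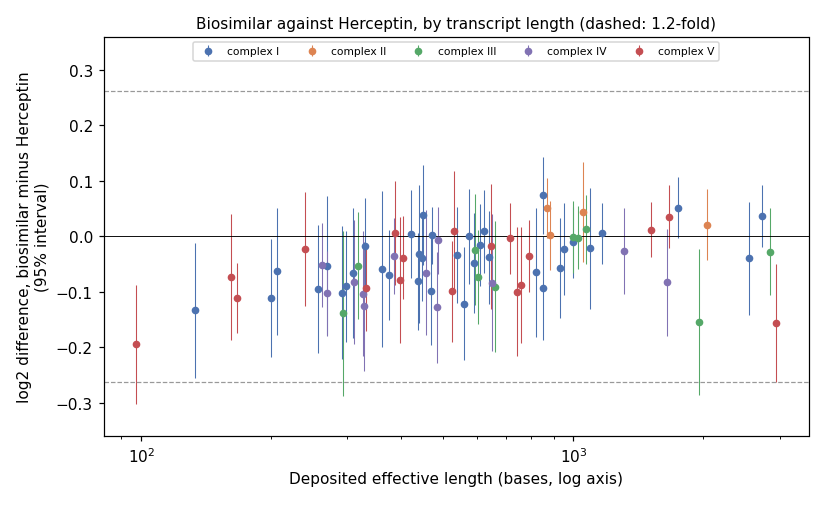
Log2 difference, biosimilar minus Herceptin, with its 95% interval (y axis), against the deposited effective length of the transcript in bases (x axis, log scale) for the 80 genes, coloured by complex. Dashed lines mark 1.2-fold. The shortest transcripts lie below 0, ATP5ME lowest at -0.20, and the 40 genes with the longer transcripts have a median of -0.02.

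Assembly factors, which build the complexes without staying in them, come from a list of 53 genes. Of these, 33 were lower (62.3%) and 1 higher with Herceptin, and 34 were lower (64.2%) and 2 higher with the biosimilar. Of all tested genes, 23.8% were lower with Herceptin and 24.6% with the biosimilar. No comparison genes were matched to the assembly factors on length and level. Their median log2 fold changes were -0.16 with Herceptin and -0.18 with the biosimilar. For complex I, 13 of 18 were lower with Herceptin and 14 with the biosimilar. NDUFAF8 averaged 21.02 CPM with Herceptin, 18.82 CPM with the biosimilar and 29.69 CPM in control, and fell by 0.50 with Herceptin (edgeR adjusted p = 4.87e-09) and by 0.66 with the biosimilar (adjusted p = 1.29e-11). NDUFAF4 fell by 0.42 with Herceptin and by 0.49 with the biosimilar. For complex IV, 11 of 21 were lower with Herceptin and 12 with the biosimilar, led by SCO2, which delivers copper, at -0.42 with Herceptin and -0.51 with the biosimilar. For complex V, 2 of 4 were lower with each antibody, and TMEM70, needed to build the c ring, fell by 0.29 with Herceptin and by 0.31 with the biosimilar. For complex III, 4 of 6 were lower with each antibody, and TTC19 was higher with both, at 0.17 with Herceptin (edgeR adjusted p = 1.87e-05) and 0.20 with the biosimilar (adjusted p = 1.87e-06). For complex II, 3 of 4 were lower with Herceptin and 2 with the biosimilar. SDHAF1 and SDHAF3, which serve the iron-sulfur subunit, fell by 0.27 and 0.29 with Herceptin and by 0.29 and 0.27 with the biosimilar. SDHAF2, which helps load the flavin into SDHA, was lower with Herceptin at -0.16 (edgeR adjusted p = 0.0427) and not called with the biosimilar at 0.01 (adjusted p = 0.933).

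CYCS, the gene of cytochrome c, which carries electrons from complex III to complex IV, averaged 560.5 CPM with Herceptin, 558.9 CPM with the biosimilar and 708.7 CPM in control, and fell by 0.34 with Herceptin (edgeR adjusted p = 1.66e-07) and by 0.34 with the biosimilar (adjusted p = 1.34e-07) on the log2 scale. Of 9 tested transcription factors and coactivators known for these genes, 5 were lower (55.6%) and 1 higher with each antibody. Of all tested genes, 23.8% were lower with Herceptin and 24.6% with the biosimilar. ESRRA, a nuclear receptor, fell by 0.27 with Herceptin and by 0.31 with the biosimilar, and TFAM, which packs and transcribes mitochondrial DNA, by 0.25 with Herceptin and by 0.26 with the biosimilar. NRF1, YY1 and the coactivator gene PPARGC1B fell by 0.24, 0.17 and 0.19 with Herceptin and by 0.17, 0.16 and 0.15 with the biosimilar. MYC was higher by 0.07 with Herceptin (edgeR adjusted p = 0.0391) and by 0.09 with the biosimilar (adjusted p = 0.0153), and the partner genes GABPA and GABPB1 were not called. PPARGC1A had too few counts to test.

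The subunits encoded in mitochondrial DNA went the other way. Of 13 mRNAs, 12 were higher and none lower with each antibody. Among all tested genes, 22.7% were higher with Herceptin and 23.3% with the biosimilar. The 13 mRNAs had median log2 fold changes of 0.35 with Herceptin and 0.42 with the biosimilar. Together they held 3.188% ± 0.227 of counts with Herceptin, 3.385% ± 0.136 with the biosimilar and 2.508% ± 0.2 in control (SD, n = 8 each). The ratio of mitochondrial to nuclear subunit counts was 2.48 ± 0.201 with Herceptin, 2.70 ± 0.178 with the biosimilar and 1.69 ± 0.164 in control, and its lowest treated value of 2.22 lay above its highest control value of 1.91. How well polyA selection keeps mitochondrial mRNA in each library was not tested.

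Some members rest on reads that other sequences share. Counts were not whole in at least 50% of libraries for 29 of the 80 genes. Among the 51 others, 35 were lower and 1 higher with Herceptin and 40 lower and 3 higher with the biosimilar. Leaving out also those whose exons overlap another tested gene left 40. Of these, 27 were lower and 1 higher with Herceptin, and 31 lower and 2 higher with the biosimilar. Over all tested genes, 23.8% were lower and 22.7% higher with Herceptin, and 24.6% lower and 23.3% higher with the biosimilar. The largest overlaps were those of ATP5ME (61.6% of exon bases), NDUFB11 (44.9%) and NDUFA1 (44.5%). The readthrough transcripts NDUFC2-KCTD14 and ATP5MF-PTCD1, and the non-coding NDUFA6-DT, were not called in any comparison. NDUFB2-AS1 and NDUFV2-AS1 reached at most 13 and 7 counts, and ATP5MGL 1, in any library.

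Library totals were 10747837 to 12260086 expected counts with Herceptin, 9070186 to 11880165 with the biosimilar and 9116591 to 10759115 in control. Carcinoma markers were abundant, with 5 of 5 tested and a summed level of 15338 to 15988 CPM with Herceptin, 14689 to 16202 CPM with the biosimilar and 13871 to 15219 CPM in control. None of 4 leukocyte markers was tested, with PTPRC at no more than 2 counts. Of 4 fibroblast markers only COL1A1 was tested, and the list summed to 3.04 to 4.21 CPM with Herceptin, 3.22 to 3.97 CPM with the biosimilar and 3.67 to 5.07 CPM in control, with COL1A2, DCN and LUM at no more than 1 count. Of 3 endothelial markers only CDH5 was tested, and the list summed to 41.7 to 53.5 CPM with Herceptin, 41.9 to 49.3 CPM with the biosimilar and 32.5 to 39.2 CPM in control, with PECAM1 at no more than 1 count.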

How the data were processed

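The authors deposited expected counts per gene. Per the submitters' processing notes, STAR, RSEM and the build GRCh38.p12 were used, after polyA selection with a stranded kit, per the labels' protocols. Not given in the sources used here are the annotation release and the strand setting of the counting. RSEM divides reads that fit several places, so a count need not be whole: 9.29% were not. All 24 columns were matched to samples by name, and groups were taken from the treatment label.

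Expected counts were rounded, which moved a library total by at most 0.000456%. Genes were kept by filterByExpr, leaving 13536, and fitted in 1 model of 3 groups with edgeR 4.0.16 (R 4.3.3; TMM factors, robust quasi-likelihood F test, prior count 0.125). The p-values of a comparison were adjusted by Benjamini-Hochberg over its 13536 genes, and 0.05 was the threshold. The model's common coefficient of variation was 4.9%. In all 84 within-group pairs of libraries the counts varied beyond sampling noise (chi-square per degree of freedom 1.51 to 8.02). This spread may be technical and does not show whether the libraries came from separate cultures. Each library was counted as a replicate. CPM uses TMM-scaled totals. SE is the fold change over the square root of F. Likeness of the antibodies was tested with a pair of one-sided tests against 1.2-fold.

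On simulated counts for Herceptin against control over 13438 genes, 52.5% of 1.2-fold and 85.7% of 1.5-fold changes were recovered, with 4.23% of calls false. Far fewer genes were changed in the simulation than were called with Herceptin in the data (23.8% lower and 22.7% higher). These rates may therefore not hold for the data. Coordinates, exon overlaps and coding sequences are from GENCODE v29 (GRCh38), and promoters from RefSeq (GRCh38.p14). Lengths are the deposited effective or transcript lengths or the union of annotated exons. The use of the effective length, and of comparison genes matched on length and level, was chosen after seeing the data. Counting errors only are covered by limits on genes with no counts, and the precision of the other values is that of 8 libraries.

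The named genes were, per complex, the core or catalytic genes, the 3 most negative and 3 most positive fold changes, genes called higher, genes called with 1 antibody, and isoform sets, and 1 gene that this rule names is not reported here. Members, lists and rule were chosen with earlier results of these data known. Alternatives were DESeq2 1.42.0, voom with limma 3.58.1, RLE and upper-quartile factors, library totals only, leaving out mitochondrial genes, other filters, only the groups compared, a replicate block and leaving out each library.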

Additional observations from a re-analysis of the deposited data

Results flagged for a closer look

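Dixon's test was run on 180 sets of 8 libraries, those of the tested named genes and of the shares of counts, each in 3 groups. The highest or lowest library stood apart from the other 7 in 8 sets, all of them sets of a gene. Chance gives this in about 1 set in 20. NDUFV1 in biosimilar replicate 6 was at 215.7 CPM, with the nearest at 202.4 CPM, and that library also had the highest share of counts in all 5 complexes. COX5B in Herceptin replicate 3 was at 161.5 CPM (nearest 147.6 CPM), ATP5F1B in Herceptin replicate 1 at 1225 CPM (nearest 1288 CPM) and ATP5MC1 in Herceptin replicate 6 at 43.02 CPM (nearest 38.18 CPM). UQCRC1 in control replicate 5 was at 287.2 CPM (nearest 271.1 CPM), and ATP5MF in control replicate 8 at 267 CPM (nearest 239 CPM). The readthrough transcript ATP5MF-PTCD1, which shares 93.8% of its exon bases with other genes, was at 15.14 CPM in Herceptin replicate 1 (nearest 12.57 CPM) and at 7.717 CPM in control replicate 1 (nearest 12.68 CPM).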

How the results depend on the processing

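Under 34 other settings or left-out libraries, the 109 named results kept their direction and side of the threshold in 3555 instances, lost the call in 99, gained it in 51 and changed sign in 1, NDUFA6-DT with the biosimilar, at -0.06 without biosimilar replicate 2 (range over left-out libraries -0.06 to 0.116). The count of members higher with Herceptin was 1 with library totals only and 1 without mitochondrial genes. Leaving out each library in turn gave 1 to 3 members higher and 55 to 60 lower with Herceptin, and 3 to 4 higher and 61 to 65 lower with the biosimilar. Calls often lost were those of NDUFV1, ATP5MC2, ATP5F1A and ATP5PD. Between biosimilar and Herceptin, no filter on low counts called 2 members lower (ATP5F1E at an adjusted p of 0.0185 and ATP5ME at 0.0218), and 11 genes lower and 1 higher in all, and DESeq2 called 8 genes lower. With a replicate block 1 member (ATP5F1E, adjusted p = 0.0366) and 14 genes were lower between the antibodies, and 63 members were lower with Herceptin. Between libraries with the same number, deviations from the group mean had correlations of -0.0902 to 0.108. Most libraries did not correlate best with their own number, so the numbers were not taken as pairs. Without mitochondrial genes in the total, the members' share was 1.339% with Herceptin and 1.539% in control. Of simulated 1.2-fold changes between Herceptin and control, 52.5% were recovered, with far fewer genes changed than were called in the data. Smaller changes were not simulated.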
